A study of Mus musculus with 12 samples.

Results

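The cytokine receptor chains described here are 10 genes of the deposited count table, chosen by gene symbol: Il4ra, Il13ra1, Il10ra, Il10rb, Il6st, Il17ra, Il15ra, Csf2ra, Csf2rb and Csf2rb2. All 10 were among the 12483 genes of the table, and all 10 passed the filter on low counts, which kept 12231 genes. Transcripts were measured in 12 libraries of RAW264.7, a mouse macrophage line. Each of the 4 groups held 3 libraries from separately labelled clones: WT clones 1, 2 and 3 without the deletion and KO clones 1A, 1B and 2 with a CRISPR deletion named NRE1, each cultured for 6 h before RNA isolation either in medium or in the presence of 10 ng/mL LPS and 50 ng/mL IFN-gamma. LPS, an outer membrane lipid of bacteria, acts through Toll-like receptor 4, and IFN-gamma is a cytokine made by T and NK cells. Per the labels' protocols, a pair of guide constructs flanking NRE1 were delivered, cells carrying both were selected by GFP and puromycin resistance, and lines were grown from single cells. What NRE1 stands for is not stated in the labels, which also do not say whether the WT clones passed through the same selection or how KO 1A and KO 1B are related. No gene of the table bears the name, so the deletion could not be checked from the counts.

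Cytokine receptors of this kind work as pairs or larger complexes. One chain, usually the private one, binds the ligand, and a shared chain brings in a second Janus kinase, after which STAT factors are phosphorylated and enter the nucleus. In macrophages, IL-4 and IL-13 drive alternative activation through STAT6, IL-10 restrains inflammatory genes through STAT3, and GM-CSF supports survival and activation through STAT5. IL-17 receptors differ in that they signal through the adaptor Act1 and TRAF proteins instead of Janus kinases.

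Total counts per library ran from 10624591 to 14388590, and mitochondrial transcripts took 1.24% to 2.53% of them. KO 1A and KO 1B were the closest pair of clones, with a median absolute log2 difference over genes of 0.087 (medium) and 0.088 (stimulated). Every other pair within a group lay between 0.156 and 0.266. Of the 10 macrophage markers examined, all were in the table, and their summed level ran from 8485 to 19951 CPM in WT medium libraries, 9414 to 19458 in WT stimulated, 4704 to 13932 in KO medium and 4895 to 9880 in KO stimulated libraries. Few markers of other cell types were in the table: 1 of 6 B cell markers (Blnk), 1 of 7 T and NK cell markers (Lck), 1 of 6 neutrophil markers (S100a8), 1 of 5 mast cell markers (Kit), and none of 5 fibroblast and 4 epithelial markers. Blnk ran from 0.190 to 37.1 CPM over all libraries, and S100a8 and Kit reached at most 2.84 and 3.38 CPM. Lck ran from 1.72 to 4.77 CPM in medium and from 7.91 to 25.4 CPM under stimulation, and Lck and Kit were called higher in both responses. CPM values are counts divided by the TMM-scaled size of their library. Adjusted p-values below are from edgeR's quasi-likelihood test with Benjamini-Hochberg adjustment over 12231 genes. A gene was called at an adjusted p below 0.05. Log2 fold changes are given ± SE, worked back from the test as the absolute log2 fold change over the square root of its F statistic. In bulk RNA, fewer cells expressing a gene and less RNA per cell cannot be told apart.

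In WT clones, stimulation raised the receptor chains for IL-10, IL-4, IL-15 and IL-13 and lowered the IL-17 receptor chain Il17ra and the shared IL-6 family chain Il6st. Of the 10 chains, 7 were called, 5 higher and 2 lower, where 47.4% of all genes tested were called (23.8% higher and 23.6% lower). The median log2 fold change was 1.76 over the chains and -0.01 over all genes. Medium and stimulated libraries did not overlap for 6 chains, against 50.5% of all genes. With clone as a block, which compares each clone with itself, 9 of 10 chains were called, 7 higher and 2 lower, against 61.2% of genes. In KO clones 6 of 10 chains were called, 4 higher and 2 lower, where 54.3% of all genes were called (26.7% higher and 27.6% lower). The median over the chains was 1.61, against -0.01 over all genes. For 7 chains the KO medium and stimulated libraries did not overlap, against 70% of genes, and with clone as a block all 10 were called, 7 higher and 3 lower, against 66.1% of genes. With KO 1A and 1B summed as 1 clone, 4 chains and 4837 genes were called in the KO response, without Il10rb and Il17ra.

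**Figure D1:**
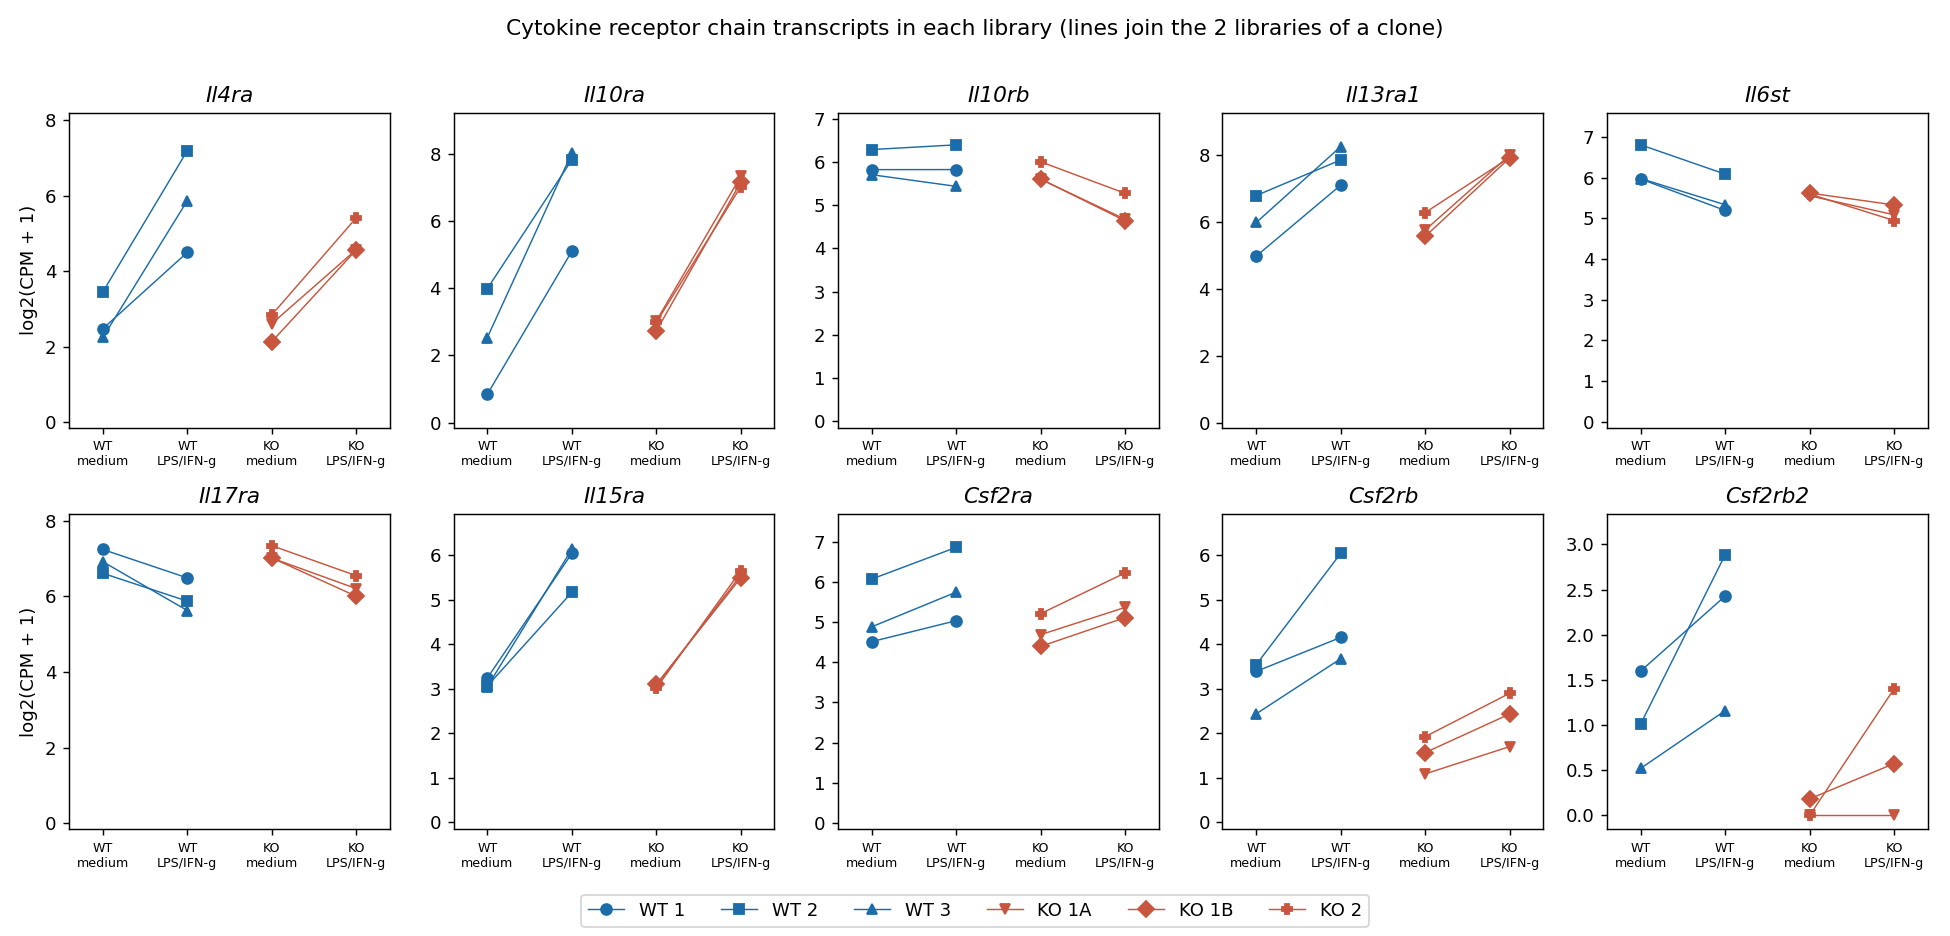
Level of each receptor chain in each library as log2(CPM + 1), with 1 panel per gene, the 4 groups on the horizontal axis and 1 marker per library (WT blue, KO red), lines joining the medium and stimulated library of a clone. Il10ra, Il4ra, Il15ra and Il13ra1 climbed in all 6 clones, Il17ra and Il6st declined in all 6, and Il10rb declined in the 3 KO clones while the WT clones stayed near their medium level.

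Il10ra, the ligand-binding IL-10 receptor chain (GRCm38, chromosome 9, 45253837 to 45269149, minus strand), showed the largest fitted change of the 10 chains in each genotype. It stood at 0.797, 14.9 and 4.79 CPM in medium in WT clones 1, 2 and 3 and at 33.3, 225 and 259 CPM under stimulation. The lowest stimulated library, WT 1, was above the highest medium library, WT 2, and the groups did not overlap. The log2 fold change was 4.67 ± 0.90 (adjusted p = 0.0019). The KO clones 1A, 1B and 2 stood at 7.12, 5.61 and 6.91 CPM in medium and at 160, 141 and 129 CPM under stimulation (4.45 ± 0.90, adjusted p = 0.0019). The KO clones lay close together in both conditions, while WT 1 was the lowest WT clone in both.

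Il10rb encodes the second IL-10 receptor chain, which is also used by IL-22 and interferon lambda receptors (chromosome 16, 91406164 to 91425834, plus strand). In WT clones 1, 2 and 3 it stood at 55.7, 77.3 and 51.3 CPM in medium and at 55.8, 83.4 and 42.4 CPM under stimulation (-0.02 ± 0.27, adjusted p = 0.95). The WT groups overlapped almost fully. In KO 1A, 1B and 2 it went from 47.5, 47.8 and 63.3 CPM to 24.6, 24.0 and 37.8 CPM, with no overlap, and fell by 0.88 ± 0.27 on the log2 scale (adjusted p = 0.018). That call was lost when KO 1A and 1B were summed as 1 clone (adjusted p = 0.090), without the KO 2 medium library (0.068), and without the stimulated library of KO 1A or of KO 1B (0.069 each). Without both libraries of KO 1A or of KO 1B it was at 0.091 and 0.092. The KO response minus the WT response was -0.86 ± 0.38 (adjusted p = 0.99), and the clone-blocked fit gave -0.84 ± 0.14 (adjusted p = 0.054). Another gene of the same strand, Gm21970 (91391721 to 91419451), shares 569 of the 3808 exon bases of Il10rb. Gm21970 had 2021 and 1593 counts in the WT medium and stimulated groups and 1837 and 1112 in the KO groups, against 2580, 1880, 2111 and 830 for Il10rb, so how shared reads were assigned could affect these values.

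Il4ra, the chain that binds IL-4 in both the type I and the type II receptor (chromosome 7, 125552120 to 125579474, plus strand), rose in both genotypes. In WT clones 1, 2 and 3 it went from 4.56, 9.95 and 3.73 CPM in medium to 21.6, 146 and 57.6 CPM under stimulation (3.63 ± 0.67, adjusted p = 0.0014). KO 1A, 1B and 2 went from 5.10, 3.38 and 6.17 CPM to 22.8, 22.7 and 41.7 CPM (2.58 ± 0.66, adjusted p = 0.0074). No stimulated library reached down to the medium libraries in either genotype, and WT 2 was the highest WT clone in both conditions. The antisense gene Gm44876 shares 571 exon bases with Il4ra and is not a row of the table. Whether counting used strand is not given in the sources used here.

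Il13ra1 encodes the chain that joins Il4ra in the type II receptor for IL-4 and IL-13 (chromosome X, 36112110 to 36171259, plus strand). It went from 30.6, 110 and 62.3 CPM to 136, 231 and 304 CPM in WT clones 1, 2 and 3 (1.73 ± 0.42, adjusted p = 0.0068, and 0.063 without both libraries of WT 3). KO clones 1A, 1B and 2 went from 53.1, 46.5 and 76.8 CPM to 255, 240 and 242 CPM (2.06 ± 0.43, adjusted p = 0.0022). The KO stimulated libraries lay within 1.06-fold of each other, the WT stimulated ones within 2.23-fold, and neither genotype's conditions overlapped.

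Il15ra binds IL-15 and presents it to neighbouring cells (chromosome 2, 11705290 to 11734317, plus strand). Its levels were the least spread of the 10 chains among WT clones in medium. In WT clones 1, 2 and 3 it went from 8.48, 7.36 and 7.28 CPM to 65.0, 35.0 and 69.4 CPM (2.87 ± 0.22, adjusted p = 4.5e-06), and in KO 1A, 1B and 2 from 7.42, 7.57 and 7.07 CPM to 45.9, 44.1 and 49.2 CPM (2.66 ± 0.22, adjusted p = 5.7e-06). Every clone rose at least 4.75-fold, and the medium libraries of all 6 clones lay between 7.07 and 8.48 CPM.

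Promoter sequences of RefSeq (GRCm38.p6) were matched for 6 of the 10 chains. The bases before the start site are shown for Il15ra, which rose with the smallest error, and for Csf2rb2. In medium the libraries of Csf2rb2 did not overlap between the genotypes, though it was not called. Those of Il6st, whose window is not shown, did not overlap there either. Motifs were searched on both strands in the 250 bases before the start: the GAS site TTCNNNGAA, bound by STAT dimers, the STAT6 site, in which TTC and GAA stand 1 base further apart, the ISRE core, GAAA repeated after a gap of 2 bases, the kB consensus, and GAGGAA, the core bound by PU.1, a factor of the myeloid lineage. Of 32851 mouse promoters, 7.02% held the first, 5.85% the STAT6 site, 2.98% the ISRE core, 7.25% the kB consensus and 23.25% the PU.1 core. Capitals mark matches, all given as read on the gene's strand, and stretches end at the first annotated exon base:
Il15ra, chr2:11705043-11705289, plus strand: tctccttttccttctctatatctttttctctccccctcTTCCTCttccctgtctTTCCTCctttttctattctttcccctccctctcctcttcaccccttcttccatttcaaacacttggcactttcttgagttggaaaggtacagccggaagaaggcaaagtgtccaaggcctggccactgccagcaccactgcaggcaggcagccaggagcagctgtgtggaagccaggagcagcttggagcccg
Csf2rb2, chr15:78305722-78305971, minus strand: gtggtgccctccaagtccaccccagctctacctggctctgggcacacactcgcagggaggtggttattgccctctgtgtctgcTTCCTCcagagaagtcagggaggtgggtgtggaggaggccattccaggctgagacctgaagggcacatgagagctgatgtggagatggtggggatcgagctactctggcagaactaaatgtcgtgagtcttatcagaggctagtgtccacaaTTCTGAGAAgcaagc
At the Il15ra start shown, both matches were PU.1 cores on the opposite strand, 212 and 196 bases before the start. The window of a second Il15ra start, at 11705712, held 0 matches and is not shown. In Csf2rb2 there was 1 PU.1 core on the opposite strand, 167 bases before the start, and 1 GAS match, which matches the pattern on both strands, 15 bases before it. Csf2ra had 2 PU.1 cores, 14 and 8 bases before its start, and the windows of Il4ra, Il6st and Il13ra1 held none of the letters searched. A match is not evidence of binding, and no binding was measured here.

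Besides Il10rb in KO clones, the chains called lower were Il17ra in both genotypes and Il6st in WT clones. Il17ra, the shared chain of the IL-17 receptors (chromosome 6, 120463247 to 120487559, plus strand), went from 150, 96.6 and 120 CPM to 88.7, 57.6 and 48.3 CPM in WT clones 1, 2 and 3 (-0.91 ± 0.24, adjusted p = 0.0095, and 0.061 without both libraries of WT 3). Values in KO 1A, 1B and 2 went from 128, 129 and 161 CPM to 72.8, 63.1 and 92.5 CPM (-0.87 ± 0.24, adjusted p = 0.010, and 0.060 with KO 1A and 1B summed). The stimulated libraries lay below all medium libraries of their genotype.

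Il6st encodes gp130, the signalling chain shared by IL-6, IL-11, LIF, oncostatin M and IL-27 receptors (chromosome 13, 112464070 to 112510086, plus strand). In WT clones 1, 2 and 3 it went from 61.7, 111 and 62.2 CPM to 35.7, 67.1 and 39.4 CPM (-0.73 ± 0.27, adjusted p = 0.045). Each WT clone declined, but the groups overlapped because WT 2 under stimulation was above WT 1 and WT 3 in medium. The call held in 4 of the 18 fits that left out a library or a clone, with adjusted p from 0.0021 to 0.20. The clone-blocked fit gave adjusted p = 0.00013. In KO 1A, 1B and 2 it went from 46.1, 48.3 and 47.5 CPM to 33.1, 39.3 and 29.9 CPM, with no overlap (-0.47 ± 0.27, adjusted p = 0.16, or 0.0016 in the clone-blocked fit).

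The GM-CSF receptor pairs Csf2ra, the private chain (chromosome 19, 61223957 to 61228429, minus strand), with Csf2rb, the beta chain that GM-CSF, IL-3 and IL-5 share (chromosome 15, 78325752 to 78353847, plus strand). Csf2rb2, the adjacent mouse copy, serves IL-3 (chromosome 15, 78282507 to 78305721, minus strand). Of the 50-base windows of each gene's transcripts, 892 were found in the other, which is 12.3% of those of Csf2rb and 18.4% of those of Csf2rb2, so reads of the 2 could be split between them by the counting.

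Csf2ra went from 21.9, 66.4 and 28.6 CPM to 31.9, 116 and 52.8 CPM in WT clones 1, 2 and 3 (0.78 ± 0.54, adjusted p = 0.26), and from 24.8, 20.1 and 36.1 CPM to 40.3, 33.6 and 74.0 CPM in KO 1A, 1B and 2 (0.87 ± 0.54, adjusted p = 0.20). Groups overlapped in both genotypes, since WT 2 and KO 2 were high in both conditions, yet every clone was higher under stimulation, by 1.46-fold to 2.05-fold. With clone as a block the values were 0.75 ± 0.10 (adjusted p = 0.00023) in WT and 0.83 ± 0.11 (adjusted p = 0.00011) in KO clones.

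Csf2rb went from 9.49, 10.7 and 4.42 CPM to 16.8, 64.9 and 11.8 CPM in WT clones 1, 2 and 3 (1.93 ± 0.65, adjusted p = 0.031). The WT groups did not overlap, and most of the mean's rise lay in WT 2, without whose stimulated library the value was 0.81 (adjusted p = 0.19). In KO 1A, 1B and 2 it went from 1.13, 1.96 and 2.80 CPM to 2.25, 4.40 and 6.46 CPM (1.15 ± 0.71, adjusted p = 0.20, or 1.14 ± 0.41 with adjusted p = 0.038 in the clone-blocked fit). The WT call was also lost without the WT 1 or the WT 3 medium library (adjusted p = 0.064 and 0.096), without KO 1B (0.063) and under library totals alone (0.054).

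Csf2rb2 was the least abundant of the 10 chains. It stood at 2.03, 1.02 and 0.435 CPM in medium and 4.38, 6.39 and 1.23 CPM under stimulation in WT clones 1, 2 and 3 (1.79 ± 0.87, adjusted p = 0.12, or 1.74 ± 0.41 with adjusted p = 0.0063 in the clone-blocked fit). In KO 1A, 1B and 2 it had 0, 2 and 0 counts in medium and 0, 5 and 15 under stimulation. The KO groups held 2 and 20 counts, which is 13.8-fold (95% counting interval 3.36 to 122, covering counting error only). The clone-blocked fit gave adjusted p = 0.017, against 0.065 without the block.

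**Figure D2:**
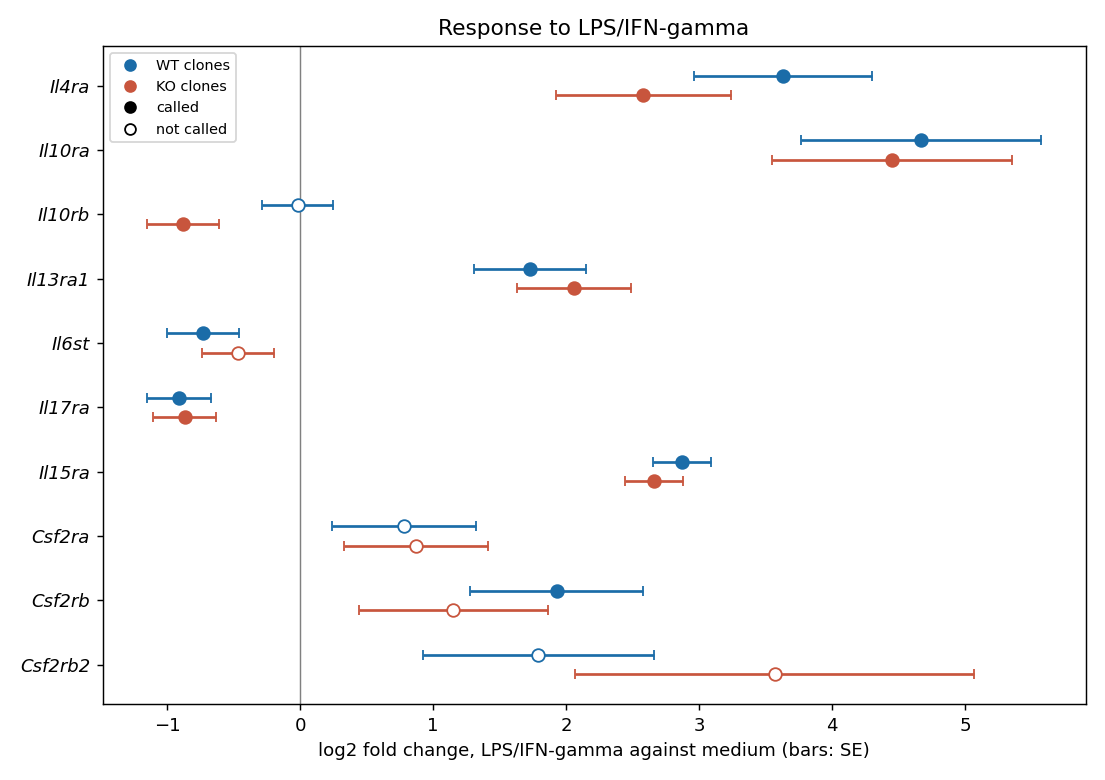
Log2 fold change of each receptor chain, LPS/IFN-gamma against medium, in WT (blue) and KO clones (red). Bars are SE worked back from edgeR's F statistic, and filled points were called at an adjusted p below 0.05. Il10ra, Il4ra, Il15ra and Il13ra1 were called higher and Il17ra lower in both genotypes, and the fitted value of Csf2rb2 in KO clones rests on 2 counts in medium.

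To set the chains of a receptor beside each other, levels were also expressed per exon length (RPKM). In WT medium libraries the order of mean RPKM was Il13ra1 (18.2), Il10rb (16.1), Il17ra (14.1), Csf2ra (13.6), Il6st (7.06), Il10ra (1.95), Il15ra (1.73), Csf2rb (1.13), Il4ra (1.01) and Csf2rb2 (0.245). Ranges over libraries of neighbours overlapped except between Il6st and Il10ra, Il15ra and Csf2rb, and Il4ra and Csf2rb2. Under stimulation the WT order began with Il13ra1 (60.2) and Il10ra (49.3), and Il6st moved to 4.27, just below Csf2rb at 4.28. In that group only Il6st and Csf2rb2 did not overlap as neighbours. In KO medium libraries Il17ra (16.1), Il13ra1 (15.8) and Il10rb (13.9) led with overlapping ranges, and Csf2rb (0.269) and Csf2rb2 (0.0095) closed the order. Under stimulation the KO order began with Il13ra1 (66.2), Il10ra (41.0) and Csf2ra (17.2), whose ranges did not overlap.

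The balance between the IL-10 receptor transcripts turned over in 5 of the 6 clones. The ratio of Il10ra to Il10rb in RPKM was 0.0156, 0.210 and 0.102 in medium and 0.650, 2.94 and 6.65 under stimulation in WT clones 1, 2 and 3. In the KO clones 1A, 1B and 2 it was 0.163, 0.128 and 0.119 in medium and 7.08, 6.42 and 3.71 under stimulation. The ligand-binding chain was the less abundant transcript in all 6 medium libraries and the more abundant in 5 of the 6 stimulated ones, WT 1 being the exception.

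The ratio of Il4ra to Il13ra1 stayed below 1 in all libraries, at 0.0923, 0.0561 and 0.0370 in medium and 0.0981, 0.391 and 0.117 under stimulation in WT clones 1, 2 and 3. It was 0.0594, 0.0450 and 0.0497 in medium and 0.0553, 0.0584 and 0.107 under stimulation in KO 1A, 1B and 2. The ratio of Csf2ra to Csf2rb was 5.84, 15.8 and 16.4 in WT medium, 4.81, 4.51 and 11.4 in WT stimulated, 55.9, 26.0 and 32.7 in KO medium and 45.4, 19.4 and 29.0 in KO stimulated libraries. No KO library overlapped a WT library in that ratio. Within each condition Csf2rb alone was also lower in every KO library than in any WT library, while Csf2ra overlapped between the genotypes. The share of other gene pairs with such a separation was not computed, so the separation has no background to be read against.

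**Figure D3:**
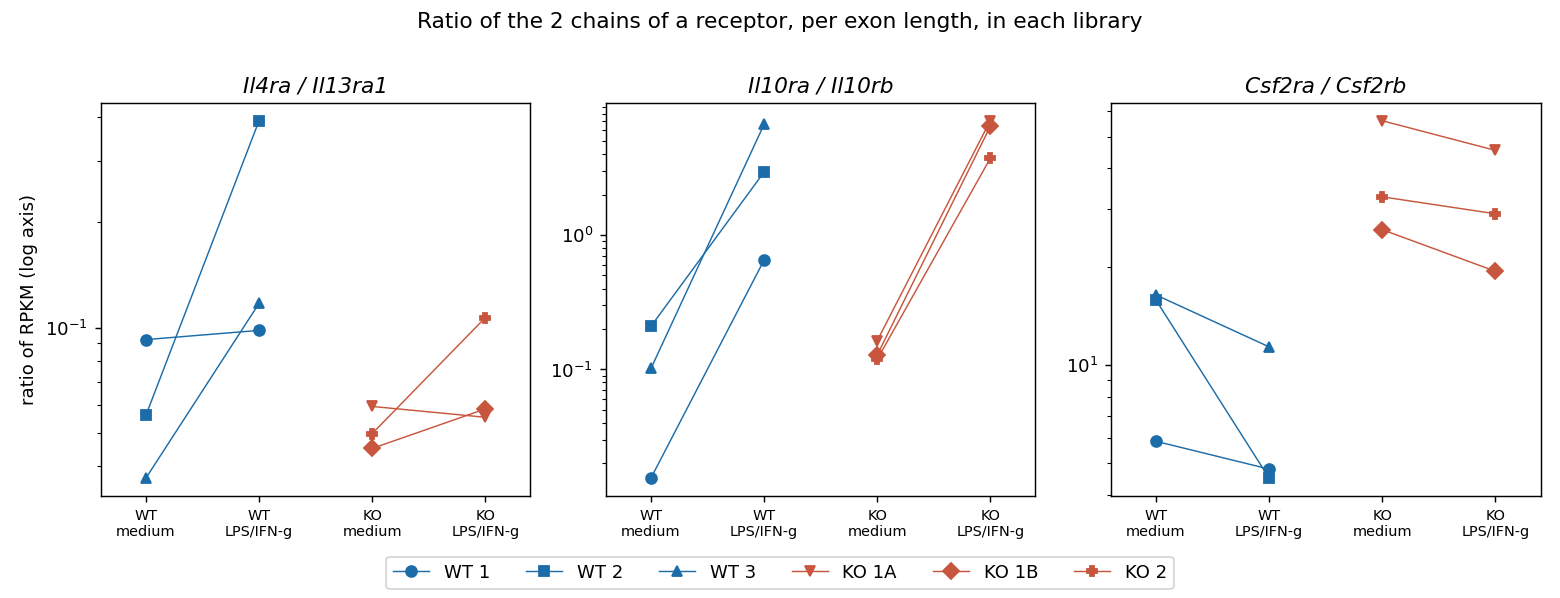
Ratio of RPKM of the 2 chains of a receptor in each library on a log axis, for Il4ra over Il13ra1, Il10ra over Il10rb and Csf2ra over Csf2rb, with 1 marker per clone and lines joining a clone's 2 libraries. The Il10ra ratio runs from 0.0156 to 0.210 in medium and from 0.650 to 7.08 under stimulation. The Csf2ra ratio is 19.4 or more in KO and 16.4 or less in WT libraries, a separation for which no background was computed.

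KO and WT clones were then compared within each condition. In medium no chain was called, where 1.21% of all genes were called (148 genes, 0.352% higher and 0.858% lower, and 1720 at an unadjusted p under 0.05). DESeq2 called 2 of the chains and 622 genes. The libraries of KO and WT did not overlap for 3 chains, all lower in KO, against 20.9% of all genes (11.4% lower). Those were Csf2rb (-2.06 ± 0.70, adjusted p = 0.20, and 0.029 with DESeq2), Csf2rb2 and Il6st (-0.73 ± 0.27, adjusted p = 0.24). Csf2rb2 had 48 counts in WT and 2 in KO medium libraries, which is 22.7-fold more in WT (95% counting interval 5.94 to 193, adjusted p = 0.18, and 0.037 with DESeq2). The other 7 chains had log2 fold changes between -0.53 (Csf2ra) and 0.19 (Il17ra), with overlapping libraries and adjusted p of 0.73 or more. The median was -0.26 over the chains and -0.01 over all genes.

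Under stimulation 1 chain of 10 was called, where 4.64% of all genes were called (1.13% higher and 3.51% lower). Csf2rb stood at 2.25, 4.40 and 6.46 CPM in the KO against 16.8, 64.9 and 11.8 CPM in the WT clones (-2.83 ± 0.68, adjusted p = 0.045). The highest KO library was below the lowest WT library. The call held in 4 of the 18 fits that left out a library or a clone, with log2 fold changes from -3.22 to -1.70 and adjusted p from 0.016 to 0.26. The fits that lost it included those without the medium or the stimulated library of any KO clone. They also included those without the WT 1 medium or the WT 2 stimulated library, or without both libraries of WT 1 or WT 2. This list of losing fits is not complete. With KO 1A and 1B summed the call was lost as well (-2.69, adjusted p = 0.23 by edgeR). With the counts of Csf2rb and Csf2rb2 added together, the value was -2.79 ± 0.69, with an edgeR adjusted p that rounds to the threshold of 0.05.

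Il10rb, the other chain whose stimulated libraries did not overlap between the genotypes (2 of 10, against 24% of genes), was at -1.07 ± 0.27 (adjusted p = 0.051). Its KO libraries lay between 24.0 and 37.8 CPM and its WT libraries between 42.4 and 83.4 CPM. DESeq2 gave adjusted p = 0.0042, library totals alone 0.047 and the fit without the WT 3 stimulated library 0.022. With KO 1A and 1B summed it was at -0.97 (adjusted p = 0.27), and it was called in 4 of the 18 fits that left out a library or a clone, with adjusted p from 0.022 to 0.30. Csf2rb2 had 20 counts in KO and 124 in WT stimulated libraries, 5.76-fold more in WT (95% counting interval 3.58 to 9.76), and its groups overlapped (adjusted p = 0.16). Il4ra was at -1.37 ± 0.60 (adjusted p = 0.23), with the WT 1 library at 21.6 CPM below all 3 KO libraries. The remaining 6 chains lay between -0.47 (Il6st) and 0.23 (Il17ra), with adjusted p of 0.35 or more. Without the WT 2 stimulated library Il15ra was at -0.53 (adjusted p = 0.034). The median was -0.46 over the chains and -0.02 over all genes. Of the 10 macrophage markers, 2 were called between the genotypes in medium (Itgam and Fcer1g, both lower in KO) and 0 under stimulation. Their libraries did not overlap for 5 markers in medium and 7 under stimulation, against 20.9% and 24% of all genes, with medians of -0.75 and -0.86. Their part in the result was not tested.

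**Figure D4:**
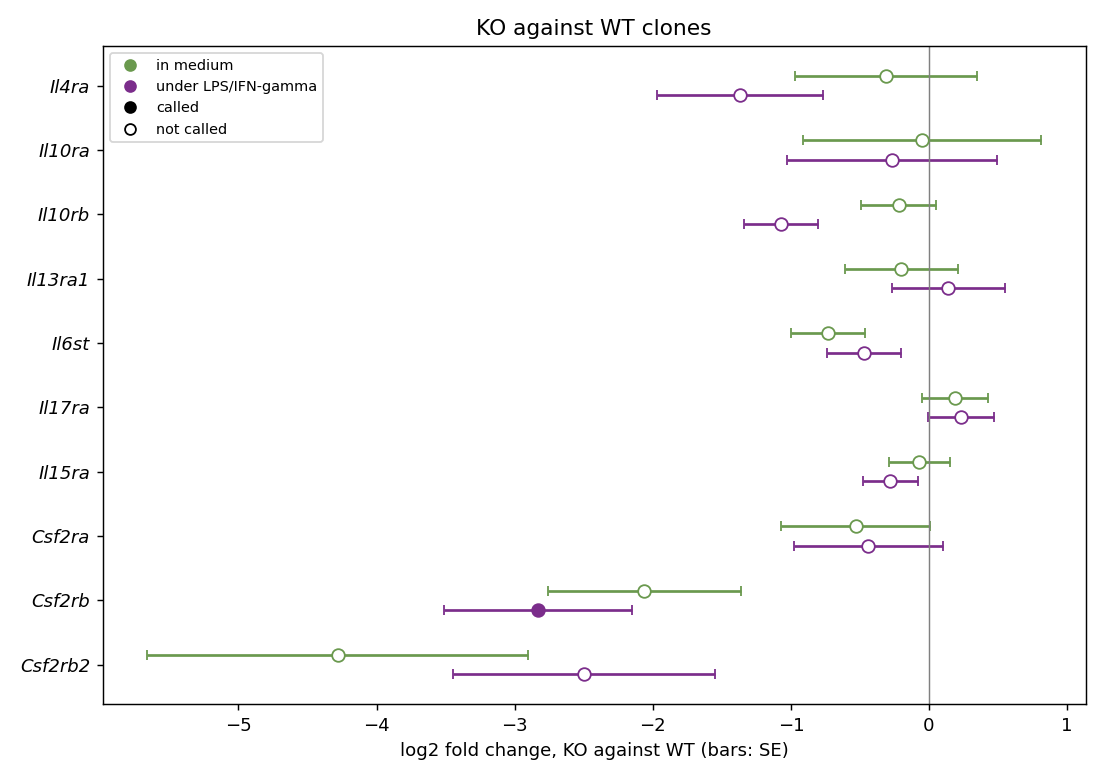
Log2 fold change of each receptor chain, KO against WT clones, in medium (green) and under LPS/IFN-gamma (purple). Bars are SE worked back from edgeR's F statistic, and filled points were called. Csf2rb under stimulation (-2.83 ± 0.68) is the filled point, and the fitted medium value of Csf2rb2 rests on 2 counts in the KO group.

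For the KO response minus the WT response, edgeR called 0 of the 10 chains and 0 of all genes (0% of genes), which does not show that the responses were alike. At an unadjusted p under 0.05 there were 611 genes, DESeq2 called 20 genes and none of the chains, and the fit with clone as a block called 40 genes (0.327%) and none of the chains. The values ran from -1.06 ± 0.89 for Il4ra and -0.86 ± 0.38 for Il10rb to 0.34 ± 0.58 for Il13ra1, leaving aside Csf2rb2, whose fitted value rests on 2 counts. For Il10rb the ratio of stimulated to medium CPM within a clone ran from 0.826 to 1.08 in the 3 WT clones. In the 3 KO clones it ran from 0.501 to 0.596, without overlap, and the clone-blocked edgeR fit gave adjusted p = 0.054. Every other chain with a ratio in each clone overlapped between the genotypes. The share of all genes with such a separation was not computed, so the separation of Il10rb has no background to be read against. The response and genotype comparisons share libraries, so their values are not independent of each other.

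The median spread between clones of a group was wider over these chains than over all genes. The highest library exceeded the lowest by a median of 2.37-fold over the 10 chains in WT medium, against 1.31-fold over 11647 genes with a mean of at least 1 CPM (0.5 CPM was added to each value). It was 2.91-fold against 1.38-fold in WT stimulated, 1.30-fold against 1.19-fold in KO medium and 1.51-fold against 1.22-fold in KO stimulated libraries. The widest was Il10ra in WT medium, 11.9-fold between WT 2 and WT 1. WT 2 was the highest WT clone in both conditions for 5 chains (Csf2ra, Csf2rb, Il10rb, Il4ra and Il6st), and KO 2 the highest KO clone in both for 5 (Csf2ra, Csf2rb, Il10rb, Il17ra and Il4ra). These are descriptions of single clones, with 1 library each per condition.

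A further list held 33 receptor chains: partners of the members and others that do not pair with them, such as Csf1r and Ifngr1. Of the 33, 15 were in the table and 14 were tested, Crlf2 being left out by the filter. In WT clones 3 rose and 4 fell, and in KO clones 2 rose and 4 fell, shares near or below the 47.4% and 54.3% of all genes called. With clone as a block 6 rose and 5 fell in WT and 4 rose and 5 fell in KO clones, against 61.2% and 66.1% of all genes. Their median was 0.06 in WT and 0.02 in KO clones. Il2rg, the common gamma chain that joins Il4ra in the type I receptor and serves IL-15, rose from 4.81 ± 1.30 to 32.1 ± 5.96 CPM in WT clones (SD, n = 3; log2 fold change 2.74 ± 0.26, adjusted p = 1.9e-05 by edgeR). In KO clones it rose from 1.27 ± 0.320 to 7.52 ± 1.71 CPM (2.55 ± 0.29, adjusted p = 3.9e-05). It was lower in KO than in WT clones in medium (-1.90 ± 0.29, adjusted p = 0.010) and under stimulation (-2.09 ± 0.26, adjusted p = 0.0022).

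Il17rc, the partner of Il17ra, rose by 1.31 ± 0.29 in WT and 1.51 ± 0.29 in KO clones, while Il17ra fell. The ratio of Il17ra to Il17rc in RPKM was 2.01 to 5.38 in medium and 0.379 to 1.13 under stimulation over the 6 clones. Il6ra, the IL-6 binding partner of Il6st, fell from 78.4 ± 5.33 to 41.6 ± 2.78 CPM in WT clones (-0.91 ± 0.10, adjusted p = 5.1e-05 by edgeR) and from 57.6 ± 5.57 to 19.3 ± 1.03 CPM in KO clones (-1.58 ± 0.11, adjusted p = 1.2e-06). Under stimulation it was lower in KO clones by -1.11 ± 0.11 on the log2 scale (adjusted p = 0.00073). Csf1r, the receptor of CSF1, and Il21r fell in both genotypes, Il20rb rose and Lifr fell in WT clones, and Ifngr1, a chain of the IFN-gamma receptor, fell in KO clones (-0.69 ± 0.21, adjusted p = 0.016). Il11ra1, Il13ra2, Il12rb1, Ifngr2, Ifnar1 and Ifnar2 were called in neither response.

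Of 19 listed ligands of these receptors, 9 were in the table and tested. Of those, 8 rose in WT and 9 in KO clones, where 23.8% and 26.7% of all genes were called higher. Il6, Il10, Il11 and Csf2 had 3 or fewer counts in each medium group and passed the filter through stimulated libraries. For them a rise was nearly the only call open, so the share over all genes is not a like background for this list. The median log2 fold change of the 9 ligands was 5.32 in WT and 6.13 in KO clones. With Csf2, which had 0 counts in medium, at its lower bound, the median was 4.09 and 5.46. Il27, a gp130 ligand subunit, went from 0.426 ± 0.282 to 641 ± 497 CPM in WT and from 0.332 ± 0.148 to 786 ± 65.3 CPM in KO clones. Il15 rose with its receptor chain, by 4.09 ± 0.46 in WT and 3.58 ± 0.46 in KO clones, and Ebi3, which pairs with the Il27 product in IL-27, by 1.79 ± 0.24 and 1.69 ± 0.25. Osm rose by 2.82 ± 0.68 and 3.58 ± 0.71.

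Ligand genes with 3 or fewer counts in medium are given as ratios with 95% counting intervals. These pool the counts of a group and cover counting error only, not the spread between clones. Il6 had 2 counts in medium and 1473 under stimulation in WT clones, and 1 and 3072 in KO clones. Il10 had 2 and 360 counts in WT clones (245-fold, 67.3 to 2030), with WT libraries between 0.365 and 32.7 CPM, and 2 and 76 in KO clones (52.5-fold, 14.1 to 442). Il11 had 2 and 20 counts in WT (13.6-fold, 3.30 to 120) and 1 and 71 in KO clones (98.2-fold, 17.1 to 3931). Csf2, which encodes GM-CSF, had 0 and 13 counts in WT clones, at least 5.89-fold higher, and 0 and 77 in KO clones, at least 35.5-fold higher, with medium set to 3 counts over its 3 libraries. Lif was the ligand called between genotypes: under stimulation it stood at 73.3 ± 35.0 CPM in KO and 18.9 ± 6.62 CPM in WT clones (1.96 ± 0.41, adjusted p = 0.026 by edgeR).

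Signalling genes behind the receptors moved as follows. Stat3, which acts behind IL-10 and gp130 receptors, rose by 2.97 ± 0.14 in WT and 2.90 ± 0.14 in KO clones on the log2 scale, and Stat2 by 3.96 ± 0.24 and 4.33 ± 0.25. Stat6, behind Il4ra, was at 0.12 ± 0.14 and -0.15 ± 0.14 (adjusted p = 0.52 and 0.39 by edgeR). Of 16 adaptor and phosphatase genes, 6 rose and 4 fell in each genotype (medians 0.21 and 0.30), beside the 47.4% and 54.3% of all genes called. Traf3ip2, which encodes Act1 of the IL-17 receptor, rose by 0.82 ± 0.13 and 0.91 ± 0.13, and Adam10, a sheddase, fell by 0.99 ± 0.10 and 1.44 ± 0.10 on the log2 scale.

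Among 11 feedback inhibitors tested, 4 rose and 1 fell in WT and 5 rose and 1 fell in KO clones (medians 0.24 and 0.16). That is 5 and 6 of 11 called, close to the 47.4% and 54.3% of all genes. Socs3, which binds gp130, went up by 5.58 ± 0.31 in WT and 5.33 ± 0.30 in KO clones, and Socs1 by 6.59 ± 0.36 and 5.64 ± 0.36. Pias3 fell by 0.92 ± 0.23 and 1.17 ± 0.23. Many of the listed target genes of the receptors are also known as genes induced by LPS or IFN-gamma. Called higher were 23.8% of all genes in WT and 26.7% in KO clones. Of 9 IL-4 and IL-13 targets tested, 4 rose in WT and 5 in KO clones (medians 2.15 and 3.84). Of 11 IL-10 and STAT3 targets, a list that holds Il4ra itself, 9 rose and 1, Fosl2, fell in WT and 9 rose in KO clones (medians 1.95 and 2.58). Of 12 GM-CSF and STAT5 targets 9 rose in each (medians 3.18 and 3.23, or 2.96 and 3.23 with genes at 0 counts in medium at their bound). Pim1, Osm, Socs3, Cish and Ccl17 are each in more than 1 list. Some listed genes, among them Ccl17, Ccl22, Mrc1 and Cish, had 11 or fewer counts in each medium group. They passed the filter through stimulated libraries, so a rise was nearly the only call open to them. The shares over all genes are thus not a like background for the target lists.

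Between genotypes under stimulation, the called genes of these target lists were Ccl22 (1.45 ± 0.28), Ccl17 (200 counts in KO and 19 in WT libraries) and Mrc1 (-3.01 ± 0.52) among IL-4 targets, Pim1 (0.69 ± 0.13) and Ddit4 (2.64 ± 0.31) among IL-10 targets, and Pim1 and Ccl17 among GM-CSF targets. These were named after their values were seen. Ddit4 was also called higher in KO clones in medium (means of 11.6 CPM in KO and 3.31 CPM in WT) and was called in neither response. No adaptor or feedback gene was called between genotypes in either condition, with 1.21% and 4.64% of all genes called there.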

How the data were processed

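The members and gene lists were chosen with earlier results of these data known. The authors deposited 1 table of whole-number gene counts for all 12 libraries, per the file headers, with no column left unused. Aligner, counter and strand setting: not given in the sources used here. Per the submitters' processing notes the build was mm10 (GRCm38), and DESeq2 is listed with no version. GENCODE M21 named 12305 of 12483 genes and left 178 unnamed, and 66 counts in exponent form were read as whole numbers. All members were named in each comparison. Ligands and the further listed receptor chains could all be named. Other lists gave up to 3 called genes per direction with the smallest p and at least 5 CPM in 1 group. Stat6 and the target genes called between genotypes were named after their values were seen. One listed gene, with the counts of its list, is not reported here.

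Counts were fitted with edgeR 4.0.16 in R 4.3.3 (filterByExpr, TMM, robust quasi-likelihood, 1 mean per group over 12 libraries, 8 residual degrees of freedom), leaving out 252 genes. Total counts per library ran from 10624591 to 14388590, and the fit's common biological CV was 23.6%. The 5 comparisons were the response in WT, the response in KO, KO against WT in each condition, and the difference of the responses. P-values of this fit rest on the spread of libraries within groups, estimated for each gene over all 4 groups together and moderated across genes. An SE or p-value is therefore not a measure of the spread in only the groups compared. The libraries of a group come from separately labelled clones. KO 1A and KO 1B were counted as separate clones, although their relation is not stated. The fit did not model the pairing of libraries from the same clone.

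The labels give each clone 1 library per condition, which pairs the libraries. Deviations of a clone's 2 libraries from their group means correlated across 12231 genes at 0.617 to 0.70 in the 3 WT clones and at 0.271 to 0.494 in the 3 KO clones, and by at most 0.25 with another clone. The fit with clone as a block (4 residual degrees of freedom) was an alternative. Others were RLE factors, library totals alone, DESeq2 1.42.0, no filter or at least 1 CPM in 6 libraries, each library left out, KO 1A and 1B summed, and Csf2rb and Csf2rb2 summed. Leaving out both libraries of a clone was added after seeing the data. Levels per length used the exon union of each gene.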

Additional observations from a re-analysis of the deposited data

How the results depend on the processing

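Of 1235 values of the chains under alternative settings, 1120 kept their direction and side of the threshold, 46 lost the call, 22 gained it and 47 changed sign, none where either value was called. Outside the fits that left out libraries, the sign changed for Il10ra in KO against WT in medium, at 0.02 under library totals alone (-0.05 with TMM). Of 40 group means of levels, 7 moved by over 1 SD under library totals, which moved the median of all genes to -0.37 in the WT and -0.39 in the KO response.

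With clone as a replicate block, 10 chains were called in the KO response and 9 in WT, and 40 genes in the difference of responses. In KO against WT in medium DESeq2 called 2 chains and 622 genes, and 16 genes were called with KO 1A and 1B summed, against 148. Under stimulation 2 chains were called with library totals, with DESeq2 or with at least 1 CPM in 6 libraries, and 0 with KO 1A and 1B summed, with 1177 genes by DESeq2 and 73 summed, against 567. DESeq2 called 20 genes in the difference of responses. The cause of these changes was not tested.

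Leaving out libraries gave 4 to 6 chains and 4741 to 5797 genes called in the WT response and 4 to 7 chains and 4587 to 7188 genes in the KO response. KO against WT gave 0 chains and 14 to 419 genes in medium, 0 to 2 chains and 48 to 972 genes under stimulation, and 0 chains and 0 to 6 genes for the difference of responses. Single chains whose sign changed when libraries were left out, none of them called, ranged as follows. In the WT response Il10rb ran from -0.32 to 0.18. In KO against WT in medium Il4ra ran from -0.58 to 0.23, Il10ra from -0.58 to 1.19, Il13ra1 from -0.55 to 0.33, Il15ra from -0.11 to 0.01 and Csf2ra from -0.82 to 0.09. Under stimulation Il10ra ran from -0.76 to 0.15, Il13ra1 from -0.12 to 0.42 and Csf2ra from -0.85 to 0.23. For the difference of responses Il10ra ran from -1.45 to 0.40, Il13ra1 from -0.19 to 0.69, Il6st from -0.08 to 0.59, Il17ra from -0.13 to 0.33, Csf2ra from -0.53 to 0.75, Csf2rb from -1.20 to 0.35 and Csf2rb2 from -0.11 to 4.49. The unknown relation of KO 1A to KO 1B and the spread among WT clones limit the genotype comparisons, and few counts limit Csf2rb2.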
